A study of Caenorhabditis elegans with 2 samples.

Results

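The microRNA (miRNA) genes of Caenorhabditis elegans were examined for peaks of Y75B8A.6, a protein carrying a TY1, EGFP and 3xFLAG tag and precipitated through its fluorescent part with an antibody against GFP. All 261 genes of biotype miRNA on the nuclear chromosomes were taken, out of 46890 nuclear genes in the Ensembl annotation of WBcel235, which is the assembly called ce11. A miRNA gene was called bound when the summit of a peak lay within 500 bp of its annotated start, a statement of position and not of regulation. Chromatin immunoprecipitation and sequencing (ChIP-seq) had been done on whole L4 larvae of strain RW12275, whose tag (allele st12275) had been placed by CRISPR at the Y75B8A.6 locus on chromosome III. Both samples were biological replicates of that 1 group, collected at 48 h from cultures synchronised by bleaching and L1 starvation, and their peaks were called against a shared input. Untagged animals were not analysed here, so sites that any tagged protein would give cannot be told apart from sites of Y75B8A.6. Whole animals mix all tissues, so a peak does not say which cells carried it.

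A miRNA gene is transcribed into a long primary RNA, from which the nuclear enzyme Drosha with its partner Pasha cuts a hairpin. Dicer then trims the hairpin to a short duplex, and an Argonaute protein keeps the mature strand, which pairs with messenger RNAs mainly through its seed near the 5′ end. In C. elegans, lin-4 and let-7 were identified as heterochronic genes, which set the timing of larval cell fates. The annotated start of most miRNA genes is the end of the hairpin, and the promoter of the primary transcript can lie well upstream or belong to a host gene, so a window further upstream was examined too.

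Mature RNAs of bound genes are shown first, because they say which of these genes belong to the same family. That of mir-354 is not shown, and no other miRNA gene shared either of its seeds. They were read from the RefSeq genome of WBcel235 at the positions of its mature products, 5′ to 3′, with the seed (bases 2 to 8) in capitals. RefSeq gave 458 mature products for 260 of the 261 genes. The mir-51 family shares the seed ACCCGUA, carried by 6 genes.
mir-51: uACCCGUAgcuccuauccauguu
mir-52: cACCCGUAcauauguuuccgugcu
mir-53: cACCCGUAcauuuguuuccgugcu
mir-54: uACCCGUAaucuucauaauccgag
mir-55: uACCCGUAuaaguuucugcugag
mir-56: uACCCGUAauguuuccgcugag

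The seed GGCAAGA of mir-72 was found in 6 genes, among them mir-73 and mir-74, and the seed AUGACAC of mir-229 in 5 genes, 4 of which stand in 1 cluster. The seed GUCAUGG of mir-47 was shared with mir-46.
mir-72: aGGCAAGAuguuggcauagcuga
mir-73: uGGCAAGAuguaggcaguucagu
mir-74: uGGCAAGAaauggcagucuaca
mir-229: aAUGACACugguuaucuuuuccaucg
mir-64: uAUGACACugaagcguuaccgaa
mir-66: cAUGACACugauuagggauguga
mir-63: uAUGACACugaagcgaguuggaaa
mir-47: uGUCAUGGaggcgcucucuuca
mir-46: uGUCAUGGagucgcucucuuca

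Of the other bound genes, mir-8186-1 and mir-8186-2 are annotated on opposite strands of the same place and give the same mature sequences, of which the 5p product is shown. The seeds of mir-77 and mir-4936 stood in no other bound gene.
mir-8186-1: aCUGCUCAaaggacuuugcugc
mir-8186-2: aCUGCUCAaaggacuuugcugc
mir-77: uUCAUCAGgccauagcugucca
mir-4936: uGCUUUGUggcuuugcuggua

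Over all miRNA genes, 43 seeds were shared by at least 2 genes of different names and 7 of these seeds were held by a bound gene. Both seeds held by more than 1 bound gene, AGCAAAG and CUGCUCA, were those of the mir-8186 pair. Apart from that locus no seed family had a second bound member. As 3.45% of the 261 miRNA genes were bound and the families are small, this is no result about seed families.

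Peaks were counted in the larger of the series' thresholded lists, named the main list here, which held 933 peaks with a caller's signal of 2.57 to 302.1 and a median of 61.7. The signal is the value the authors' peak caller gave each peak. Its scale is not stated, so values were compared within a list only. Of the 261 miRNA genes, 9 were bound, or 3.45% (exact Clopper-Pearson 95% interval 1.59 to 6.44, which covers counting error only). Over all nuclear genes the share was 1.86%, and without the piRNA genes, short genes that lie densely in parts of chromosome IV, it was 2.68%. Both shares lie inside the interval of the miRNA genes. The 9 genes shared 8 summits, because the mir-8186 pair had a single one. By the same rule 191 of 612 tRNA genes (31.2%), 55 of 346 snoRNA genes (15.9%) and 14 of 129 snRNA genes (10.9%) were bound. In this order of shares miRNA genes stood with the 7764 genes of biotype ncRNA (3.14%) rather than with those 3 classes. Of the 20 rRNA genes 0 were bound.

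The bound genes were spread over 5 of the 6 chromosomes, with 4 on chromosome II, 2 on III, 1 each on I, IV and X, and 0 of 28 on V. The 4 on chromosome II include the mir-8186 pair. Outside protein-coding genes 7 of 152 miRNA genes were bound, inside introns 1 of 99, and in annotated exons 1 of 10. Of the 9 summits counted once per gene, 6 were upstream of the annotated start and 3 downstream, and 3 were within 100 bp of it. The plot of summit positions shows them with the summits further upstream.

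**Figure D1:**
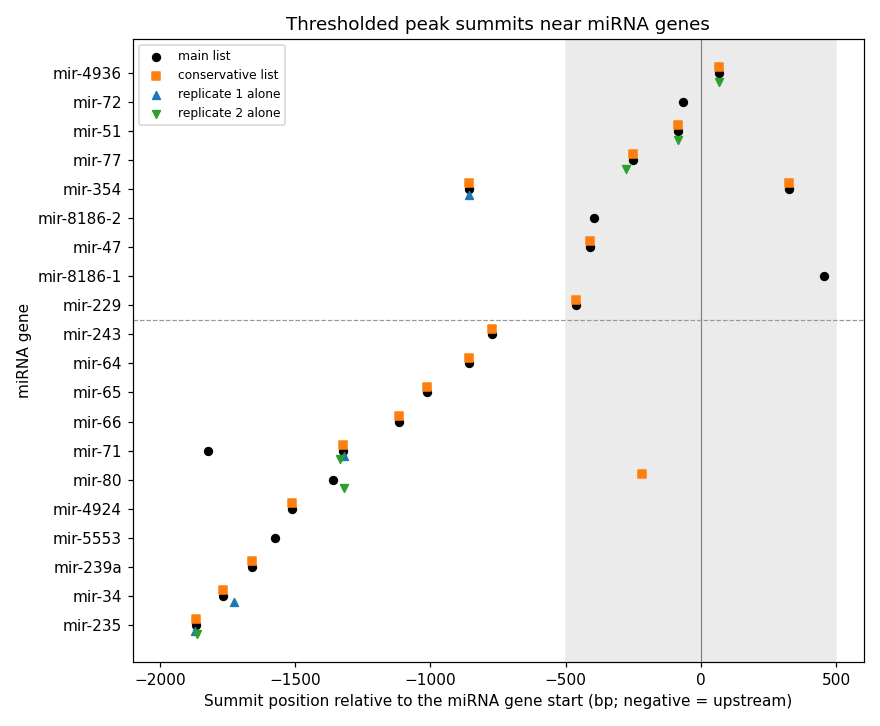
Positions of peak summits relative to the annotated start of each miRNA gene (bp, negative values upstream), for 20 genes with a main-list summit within 500 bp or up to 2000 bp upstream. Symbols mark the main, conservative, replicate 1 and replicate 2 lists, grey shading the 500 bp window, and the 9 bound genes stand above the dashed line. Only mir-71 and mir-235 have a symbol of all 4 lists, both beyond 1000 bp upstream.

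The peak of highest signal was at mir-77 (WBGene00003305, II 12519268 to 12519367, + strand, build ce11), a gene outside any protein-coding gene. It reached a signal of 91.6, rank 125 of 933, at II 12518890 to 12519145, with the summit 250 bp upstream of the hairpin. In the ranked candidate lists of the replicates, the highest signal within 500 bp was 33.7 in replicate 1 and 47.1 in replicate 2. The summit was nearer to other starts than to mir-77: it stood 68 bp from the start of the snoRNA gene T21B4.20 and 159 bp from that of srh-70, a gene of a chemoreceptor family, and lay in the promoter windows of srh-70 and ceh-99. Promoter windows were taken around each annotated transcript start of a protein-coding gene, with 1000 bp before it and 300 bp after it. The stretch from the summit through the snoRNA gene is shown 5′ to 3′ on the + strand of ce11, II:12518998-12519237, from the RefSeq genome. Capitals mark T21B4.20, and the summit is base 21.
mir-77 upstream: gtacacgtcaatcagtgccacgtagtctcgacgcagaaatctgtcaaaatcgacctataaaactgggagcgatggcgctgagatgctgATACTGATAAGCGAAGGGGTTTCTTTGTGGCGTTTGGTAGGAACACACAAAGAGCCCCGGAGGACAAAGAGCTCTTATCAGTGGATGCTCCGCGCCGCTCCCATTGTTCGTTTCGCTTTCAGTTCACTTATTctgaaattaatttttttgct

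The mir-77 hairpin begins downstream of that snoRNA gene, so the order along the strand was summit, snoRNA gene, miRNA gene. It was 1 of the 6 miRNA genes with a tRNA, snoRNA, snRNA or rRNA gene start within 500 bp, and the only bound one of those. Without summits nearer another such start, 8 of 261 miRNA genes remained bound. Under the same rule 1.42% of all nuclear genes, piRNA genes included, were bound.

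The second signal stood at mir-51 (WBGene00003279, IV 11026013 to 11026112, − strand), a member of a family that acts redundantly and is needed for embryonic development. The peak at IV 11026071 to 11026326 had a signal of 76.9, rank 236 of 933, with its summit 87 bp upstream of the hairpin. The replicates gave 39.1 (replicate 1) and 44.4 (replicate 2). A noncoding RNA gene of 89 bp, F36H1.17 (IV 11026131 to 11026219, − strand), starts 20 bp from the summit, and the hairpin follows it on the same strand. The nearest protein-coding start, that of hrg-5, was 3229 bp away. The stretch is shown on the − strand, IV:11026013-11026232, with the mature products in capitals and the summit at base 34.
mir-51 locus: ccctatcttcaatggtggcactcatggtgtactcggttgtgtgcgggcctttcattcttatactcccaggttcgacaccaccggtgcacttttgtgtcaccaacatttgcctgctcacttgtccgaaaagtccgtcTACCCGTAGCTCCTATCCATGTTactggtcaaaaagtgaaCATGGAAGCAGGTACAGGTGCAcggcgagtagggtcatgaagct

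The stretch holds gttcgacac, a match to the B box, the internal promoter element of tRNA genes, written GTTCGANNC and sought on both strands in 101 bp at each summit. The match lies at IV 11026155 to 11026163, inside F36H1.17. Of the 8 summits within 500 bp of a miRNA gene 1 held the motif, this one. The background shares were 9.54% (89 of 933) over all main-list summits, 42.6% (72 of 169) at summits within 500 bp of a tRNA gene start and 2.23% (17 of 764) at the others. A match describes letters and is no evidence of a factor at the site.

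The other members of the mir-51 family had no main-list summit within 500 bp. The closest, mir-53, starts 1579 bp from mir-51 on the same strand. In the ranked list behind the main list, which held 103934 candidates, its highest signal was 21.1, and the replicates gave 18.0 (replicate 1) and 19.8 (replicate 2). At mir-52, also on chromosome IV, these values were 39.6, 26.2 and 19.2, and the score, which follows the irreproducible discovery rate (IDR), was 566 against a lowest score of 830 in the main list. mir-54, mir-55 and mir-56, a cluster in an intron of F09A5.3 on X, had 31.2 each, from 1 shared candidate peak. Of the 6 genes with the seed ACCCGUA, then, mir-51 alone was bound under this rule.

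At mir-4936 (WBGene00219264, III 3249151 to 3249260, + strand) the summit stood inside the hairpin, 66 bp downstream of its start, the only such case among the 9. The signal was 65.3 (rank 391 of 933, III 3249089 to 3249344), with 25.1 in replicate 1 and 41.7 in replicate 2. The same summit lay in the promoter windows of Y53G8AL.4 and of nduf-9, which encodes a subunit of mitochondrial complex I and starts 642 bp away. The sequence below, III:3249091-3249260 on the + strand, ends with the hairpin. Capitals mark the annotated mature product, and the summit, base 127, is the last base before it.
mir-4936 locus: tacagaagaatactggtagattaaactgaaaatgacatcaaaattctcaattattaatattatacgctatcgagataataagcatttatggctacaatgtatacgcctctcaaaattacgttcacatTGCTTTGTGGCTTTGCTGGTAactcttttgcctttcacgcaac

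The pair mir-8186-1 (WBGene00255560, II 18638 to 18698, + strand) and mir-8186-2 (WBGene00255561, II 18637 to 18697, − strand) shared a summit near the end of chromosome II. Its signal was 62.2 (rank 461, II 18964 to 19219), and the replicates gave 25.3 and 21.7 for replicates 1 and 2. The summit was 454 bp downstream of the first start and 395 bp upstream of the second. It also lay in the promoter window of gmeb-1, whose start was 446 bp away, so the first of the pair was not the nearest gene.

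At mir-72 (WBGene00003300, II 2452838 to 2452936, + strand) the summit stood 67 bp upstream of the hairpin, in a peak at II 2452643 to 2452898 with a signal of 61.5 (rank 476). The signal was 35.6 in replicate 1 and 20.1 in replicate 2. No protein-coding start lay closer than that of pqn-42, at 6210 bp. The sequence II:2452718-2452936 on the + strand is shown with the mature products in capitals and the summit at base 54.
mir-72 locus: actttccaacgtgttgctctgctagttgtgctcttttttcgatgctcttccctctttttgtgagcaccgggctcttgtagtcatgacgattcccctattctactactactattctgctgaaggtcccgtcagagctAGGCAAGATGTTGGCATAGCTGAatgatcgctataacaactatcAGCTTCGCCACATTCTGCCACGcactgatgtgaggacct

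Its seed relatives mir-73 and mir-74, neighbours on X, shared a candidate peak of 43.0 in the ranked list behind the main list, with 22.6 in replicate 1 and 18.0 in replicate 2, and were not bound.

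At mir-47 (WBGene00003275, X 13921250 to 13921346, + strand) a summit stood 411 bp upstream, with a signal of 60.9 (rank 488, X 13920711 to 13920966), and with 31.5 and 24.0 in replicates 1 and 2. No protein-coding gene and no other small RNA gene started nearer to the summit.

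The summit at mir-229 (WBGene00003322, III 2172452 to 2172566, + strand) was the most shared one. It stood 461 bp upstream, with a signal of 59.2 (rank 536, III 2171863 to 2172118), in an intron of gcn-1 on the same strand, whose yeast namesake takes part in the amino acid starvation response. The next genes of the cluster, mir-64, mir-65 and mir-66, begin 396, 550 and 656 bp after mir-229, and the same summit was 857, 1011 and 1117 bp upstream of them. All 4 carry the seed AUGACAC, and the fifth gene with it, mir-63 on X, had no main-list summit in either window. Replicate 1 had a candidate of 31.9, 423 bp upstream of mir-229. Replicate 2 had none within 500 bp of mir-229, and its candidate upstream of mir-64 had 25.1 and stood 909 bp from that gene, so the replicates placed the summit on either side of the window's edge.

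The weakest bound gene was mir-354 (WBGene00014612, I 14468382 to 14468491, − strand), in an exon of rps-20, which encodes a protein of the small ribosomal subunit. A peak with a signal of 51.3 (rank 755, I 14468039 to 14468294) had its summit 324 bp downstream of the miRNA start, in an exon of Y105E8A.14 and 47 bp from that gene's start. A second peak, of 76.4 (rank 244, I 14469221 to 14469476), stood 858 bp upstream of mir-354, in the promoter windows of rps-20 and ekl-4. The replicates gave 33.0 (replicate 1) and 24.1 (replicate 2) within 500 bp. Of the 9 bound genes, 5 had their summit in a protein-coding promoter window, and for 3 a protein-coding start was nearer than the miRNA start.

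The score of the mir-354 peak, 868, was the lowest among the bound genes. Just below the threshold, in the ranked list behind the main list, stood mir-80 with a score of 799 (signal 52.7), mir-5549 with 787 (54.5), mir-8195 with 784 (48.8) and mir-2214 with 778 (43.7). At mir-5549 the candidate summit was 6 bp upstream of the start, closer than any of the 9. The replicates gave 27.6 (replicate 1) and 20.5 (replicate 2) there. The 10 unbound genes of highest signal ran down from mir-5549 through mir-80, mir-2217b-1 (50.5), mir-8195, mir-41 (47.7), mir-353 (47.7), mir-4808 (43.8) and mir-2214 to mir-73 and mir-74. Of these, mir-353 lies in an intron of the ribosomal protein gene rpl-24.1, and its signals were 21.5 in replicate 1 and 29.3 in replicate 2. The plot of signals in order shows that bound and unbound genes overlapped between 51.3 and 54.5.

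**Figure D2:**
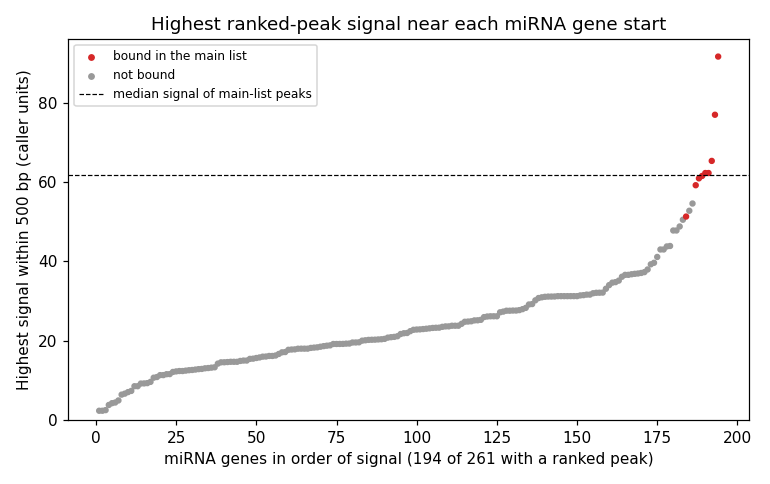
Highest signal within 500 bp of each miRNA gene start in the ranked list behind the main list (caller's units, vertical axis) for the 194 of 261 genes with a candidate peak, in order of signal (horizontal axis). Red points are the 9 bound genes, grey points the others, and the dashed line is the median of main-list peaks, 61.7. Most genes lie far below that line.

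Across all miRNA genes, 194 of 261 (74.3%) had a candidate within 500 bp in that ranked list, with a median signal of 22.1 and quartiles of 15.5 and 31.2. The same values over all nuclear genes without the piRNA genes were 72.4% and 21.0. In replicate 1, 59.8% of the miRNA genes had a candidate, with a median of 15.8, against 55.4% and 14.1 over the genes without piRNA genes. For replicate 2 the share was 54.8% and the median 13.7, against 49.4% and 12.8. In these 3 lists both the share and the median of the miRNA genes were the higher ones.

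How far the replicates repeated each other was read from 109 miRNA genes with a candidate in both. Across these genes, which share libraries and in clusters also peaks, Spearman's rho was 0.31 and Pearson's r 0.35, given as a description. The conservative list, the other thresholded list of the series, held 798 peaks and 7 miRNA genes, against 1.74% of all nuclear genes. Replicate 1 taken alone had 343 thresholded peaks and 2 bound miRNA genes, against 0.672% of all nuclear genes, and replicate 2 had 345 peaks and 5 bound miRNA genes, against 0.855%. No miRNA gene was bound in both replicate lists. The genes mir-77, mir-51 and mir-4936 were bound in the main, conservative and replicate 2 lists, mir-47, mir-229 and mir-354 in the main and conservative lists, and mir-72 and the mir-8186 pair in the main list only.

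A further 5 genes were bound only in another list. The conservative list added mir-80 (52.7, 217 bp upstream). Replicate 1 had mir-4929 (37.4, 223 bp downstream) and mir-8195 (41.0, 330 bp downstream, in an exon of tsr-1). Replicate 2 had mir-41 (42.0, 410 bp downstream) and mir-2214 (35.5, 8 bp upstream). The mir-41 summit lay in an exon of Y62F5A.9, a gene on the opposite strand, and was nearer to that gene's start, at 123 bp. In all, 14 miRNA genes (5.36%) were bound in at least 1 of the 4 lists, and none in all 4. The share of all nuclear genes was 2.27%, with piRNA genes included. Without them it was not computed, while in the main list leaving them out raised the share from 1.86% to 2.68%. The replicate 1 list called none of the 9 genes of the main list.

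**Figure D3:**
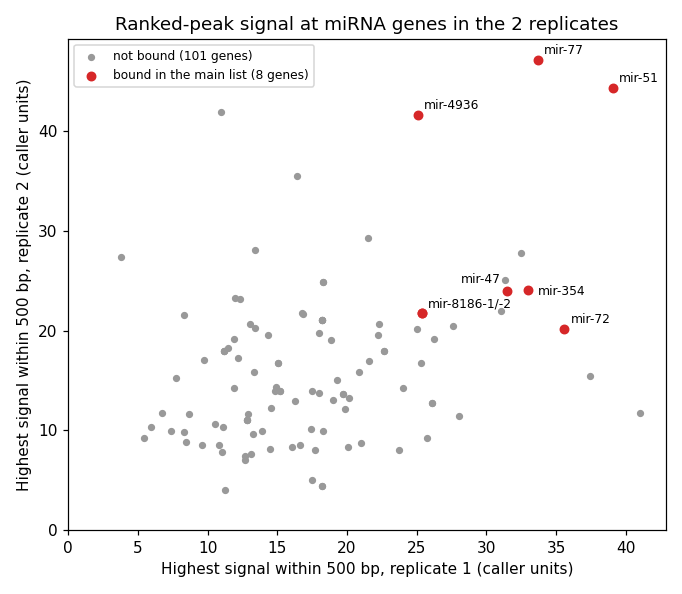
Highest candidate signal within 500 bp of the gene start in replicate 1 (horizontal) and replicate 2 (vertical), in caller's units, for 109 miRNA genes with a candidate in both. Red points are 8 of the 9 bound genes, since mir-229 has no candidate of replicate 2 in the window. mir-77, mir-51 and mir-4936 stand highest in replicate 2 among the bound genes, and mir-51 and mir-72 in replicate 1.

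Because primary transcripts can start far from the hairpin, summits up to 2000 bp upstream were counted as well. There were 18 such genes among the 261 (6.90%, 95% interval 4.14 to 10.7), with 16 summits. The share over all nuclear genes was 2.21%, and without the piRNA genes 3.01%, and both lie below the interval of the miRNA genes. The interval treats genes as separate, although mir-229, mir-64, mir-65 and mir-66 had 1 summit between them, and what starts the summits belong to is described next. With either window, 20 genes (7.66%) had a main-list summit, and 11 of them only upstream. For the windows together, the share was 3.05% over all nuclear genes and 4.21% without the piRNA genes.

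**Figure D4:**
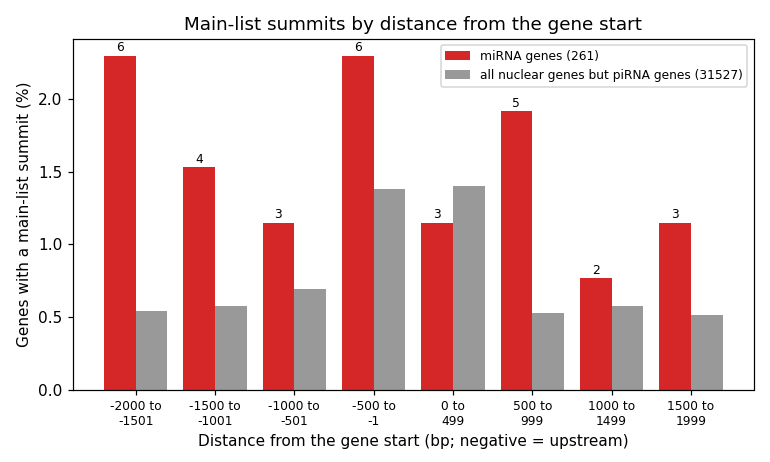
Share of genes (%) with a main-list summit in 500 bp bins of distance from the annotated start (bp, negative values upstream) for 261 miRNA genes (red, with the number of genes above each bar) and 31527 nuclear genes other than piRNA genes (grey). The grey bars peak in the 2 bins beside the start, at 1.38% and 1.40%, while the red bars reach 2.30% both at −500 to −1 bp and at −2000 to −1501 bp, with 6 genes each.

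The 3 bins from −2000 to −501 bp held 6, 4 and 3 miRNA genes, or 2.30%, 1.53% and 1.15%, against 0.542%, 0.577% and 0.691% of the other genes. Downstream, the 3 bins from 500 to 1999 bp held 5, 2 and 3 miRNA genes, or 1.92%, 0.766% and 1.15%, against 0.527%, 0.574% and 0.511%. The miRNA share was the higher one in all 6 of these bins and in the bin from −500 to −1 bp (2.30% against 1.38%), and the lower one in the first bin downstream of the start (1.15% against 1.40%). The bins are not separate, because 1 summit can count in several. That of mir-229 was counted again in bins further upstream for mir-64, mir-65 and mir-66. Those upstream of mir-80 and mir-239a were counted again downstream of mir-238 and mir-239b. Each miRNA share rests on at most 6 genes, and the differences were not tested.

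Among genes with only an upstream summit, mir-34 had the highest signal. It belongs to a family conserved across animals and known for roles in stress responses. The main-list signal was 81.9, 1766 bp upstream, outside any gene, and the replicate values were 41.8 (replicate 1) and 36.1 (replicate 2). The peak was also in the conservative and replicate 1 lists. Within 500 bp of its hairpin the candidate signals were 20.1 in the ranked list behind the main list and 20.3 in replicate 1, with none in replicate 2. The other ranked list of the series had a candidate of 39.0 there, 275 bp upstream.

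mir-71, which promotes long life and survival of L1 arrest, and mir-235, which helps to keep blast cells quiescent in starved L1 larvae, were the only 2 miRNA genes with a summit in all 4 lists. At mir-71, in an intron of ppfr-1, the main-list signal was 74.4 at 1324 bp upstream, and a second summit of 50.5 stood at 1822 bp. The replicates gave 38.3 and 36.3. The noncoding RNA gene F16A11.13 starts 373 bp from the stronger of these summits and 125 bp from the weaker. At mir-235 the signal was 76.4 at 1868 bp upstream, with 41.3 and 38.9 in replicates 1 and 2. That summit was 64 bp from the start of the tRNA gene T09B4.t1 and held the B box motif, so it was far nearer to a tRNA gene than to the miRNA gene.

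The bantam relative mir-80, whose family includes mir-58a, mir-81 and mir-82 and which is known for restraining the response to diet restriction, had a main-list summit of 47.4 at 1359 bp upstream. The start of another miRNA gene, mir-238, was nearer to that summit than mir-80. Replicate 2 placed the summit 1321 bp upstream of mir-80, with a signal of 32.0. The conservative list instead held the summit 217 bp upstream. None of the 3 relatives was bound, with candidate signals within 500 bp of 36.7 at mir-58a, 29.1 at mir-81 and 18.6 at mir-82. The seed of mir-80, GAGAUCA, was carried by 6 genes, the others being mir-81, mir-82, mir-58b, mir-58c and mir-2209a. None of the 6 was bound in the main list. The seed of mir-58a was GAGAUCG.
mir-80: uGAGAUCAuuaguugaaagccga
mir-81: uGAGAUCAucgugaaagcuagu
mir-58a: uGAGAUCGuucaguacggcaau

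The remaining upstream summits were those of 4 further genes, apart from the mir-229 cluster. mir-239a, of a pair linked to lifespan, had 61.2 at 1661 bp upstream, with 36.6 in replicate 1 and 25.4 in replicate 2. Other starts were nearer to that summit than mir-239a. They were those of mir-239b, of the noncoding RNA gene C34E11.9 (961 bp) and of a snoRNA gene, C34E11.20 (1331 bp). mir-5553 had 61.0 at 1574 bp, in an exon of C46F2.1, with 36.9 and 18.4 in replicates 1 and 2. mir-243, known for entering the RNA interference pathway through the Argonaute RDE-1, had 64.1 at 772 bp, and mir-4924 had 54.2 at 1510 bp. Both of these summits were in the promoter window of the host gene. Over all 11 genes with only an upstream summit, mir-64, mir-65 and mir-66 of the mir-229 cluster included, there were 10 summits. Of these, 2 were nearer a small RNA gene start, 2 were in a promoter window and 6 lay inside a protein-coding gene.

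Host genes were followed separately, since a miRNA inside a gene on the same strand can be transcribed from the host's promoter. There were 76 miRNA genes in 69 such hosts, and 4 hosts (5.80%) had a main-list summit in their promoter window, against 2.32% (463 of 19973) of all protein-coding genes. The hosts were rps-20 of mir-354 (76.4), idhg-1 of mir-4813 (68.1, 54 bp upstream of the host's start and 2897 bp from the miRNA), R08C7.12 of mir-243 (64.1) and T11G6.5 of mir-4924 (54.2). idhg-1 encodes a subunit of mitochondrial isocitrate dehydrogenase. In 3 of the 4 the summit was also within 2000 bp upstream of the miRNA gene, while that of mir-4813 was not. With 4 hosts, the share rests on few genes.

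Clusters were formed from miRNA genes on 1 strand whose starts lay within 10000 bp of the next. There were 29 clusters with 81 genes, the largest of 11 genes, and 180 genes stood alone. Of the 81 genes in clusters, 2 were bound, mir-51 and mir-229. Of the 180 that stood alone, 7 were bound, the mir-8186 genes among them because they lie on opposite strands. Among all 261 miRNA genes 3.45% were bound, so these counts are no result about clusters.

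Neither let-7 nor lin-4 was bound, and of the list of 30 known genes only mir-51 was. Among all 261 miRNA genes 3.45% were bound, so a small group without a bound gene is no result about that group. let-7, which drives the change from larval to adult cell fates, is annotated as a primary transcript of 1732 bp, and at its annotated start the candidate signal was 4.21. Counted from the hairpin (X 14744173 to 14744271, − strand), there was a candidate of 22.4 at 444 bp upstream, with 5.60 in replicate 1 and none in replicate 2, and no thresholded summit. At lin-4, which acts early in the same timing pathway, the signals within 500 bp were 35.1 in the ranked list behind the main list, 18.0 in replicate 1 and 13.8 in replicate 2. In the ranked list behind the main list, these signals lie below the lowest one of a bound miRNA gene, 51.3.

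The let-7 relatives mir-48, mir-84 and mir-241, which act together in the second larval stage, had 24.2, 27.3 and 23.6, and mir-237, the relative of lin-4, had 27.7. In the replicates mir-48 had 25.7 and 9.19, mir-84 had 17.5 and 5.00, mir-241 had 14.4 and 19.5 and mir-237 had 11.4 and 18.3, replicate 1 first. No gene with the let-7 seed GAGGUAG (5 genes) or the lin-4 seed CCCUGAG (2 genes) had a main-list summit in either window.
let-7: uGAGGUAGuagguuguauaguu
mir-48: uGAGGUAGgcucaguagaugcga
lin-4: uCCCUGAGaccucaaguguga

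Genes known from single tissues were not bound either. mir-1, a regulator of muscle function, had 24.7, with 12.3 in replicate 1 and 23.1 in replicate 2. mir-124, expressed in sensory neurons, had 29.2, with 20.9 in replicate 1 and no candidate in replicate 2. lsy-6, which sets the left-right difference of a pair of taste neurons, and mir-228, expressed in glia, had no candidate within 500 bp in any of the 4 ranked lists. Just outside that window, 544 bp upstream of mir-228, both ranked lists of the series had a candidate of 32.1. Replicate 1 had 4.70 at 672 bp upstream of mir-228, and replicate 2 had 16.5 at 652 bp. In whole animals, no binding and binding in few cells cannot be told apart. The mir-35 family, essential in the embryo, comprises mir-35 to mir-41 in 1 cluster and mir-42 apart. In the cluster the signals ran from 18.0 to 47.7, with mir-41 highest, and mir-42 had 31.2. The mir-41 candidate stood 412 bp downstream of the miRNA start. All 8 genes with the seed CACCGGG were unbound in the main list.

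The protein machinery of the pathway was read from promoter windows of protein-coding genes. The list was chosen with earlier results of these data known, so the choice of members may bear on its share, which is a description only. Of 26 genes for miRNA processing, silencing and decay, 4 had a main-list summit (15.4%), beside 2.32% of all protein-coding genes. They were nhl-2, a TRIM-NHL cofactor of miRNA silencing (117.4, rank 52), ifet-1, a translational repressor (98.3, rank 93), vig-1, a component of the silencing complex (68.8, rank 337), and ain-1, the GW182 protein that binds Argonaute (51.5, rank 749). Replicate 1 gave 54.7, 40.0, 55.3 and 37.1 for them in that order, and replicate 2 gave 59.1, 49.5, 25.1 and 18.8. By rank among 75570 candidates in replicate 1 and 56066 in replicate 2, nhl-2 stood at 144 and 99, ifet-1 at 406 and 155, vig-1 at 140 and 1541, and ain-1 at 537 and 5642.

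Of these 4 summits, that of nhl-2 stood 831 bp upstream and was shared with the window of tag-340, and that of ifet-1 stood 507 bp upstream and was shared with the window of rps-1, a ribosomal protein gene. The vig-1 summit was 381 bp and the ain-1 summit 944 bp upstream. Among the unbound genes, candidate signals in the promoter window were 19.7 for drsh-1 (Drosha), 25.5 for pash-1 (Pasha) and 21.5 for dcr-1 (Dicer). They were 39.4 and 27.9 for the Argonautes alg-1 and alg-2. As 2.32% of all protein-coding genes were bound, so few unbound genes are no result about these proteins. The highest unbound member of the pathway list was cgh-1, a helicase of messenger RNA storage and repression, with 46.0, 29.4 in replicate 1 and 23.3 in replicate 2.

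Of 20 heterochronic and other target genes, 2 had a summit (10%), beside the same 2.32%. This list too was chosen with earlier results of these data known, and lin-28 stands in both lists. cbp-1, a histone acetyltransferase gene and a known target of mir-80, had 118.6 (rank 45, 911 bp upstream), with 30.5 in replicate 1 and 75.9 in replicate 2. lin-46, which acts downstream of lin-28 in the heterochronic pathway, had 59.6 (rank 516, 794 bp upstream), with 43.0 in replicate 1 and 16.2 in replicate 2, in a summit shared with the windows of R186.3 and R186.8. By rank, cbp-1 stood at 1207 in replicate 1 and 56 in replicate 2, and lin-46 at 314 and 10419. The main targets of lin-4 and let-7, lin-14, lin-28 and lin-41, were unbound, with 31.8, 35.6 and 16.7. This too is no result about so small a group.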

How the data were processed

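The data were ChIP-seq peak lists of 2 biological replicates of 1 group. Per the labels, chromatin was sonicated to 200 to 800 bp and the build was ce11. The aligner and the peak caller are not given in the sources used, and read depth is unknown, so precision rests on numbers of peaks and genes. For each replicate and for the series the authors deposited ranked and thresholded lists. Peak positions, as deposited by the authors, gave each summit. The signal is the value of the authors' caller in the deposited lists. The deposited score, at most 1000, follows the IDR, whose −log10 stands in a column of the authors' ranked lists: in each of those lists the score differed by at most about 1.00 from the transformed IDR.

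The main list was the larger thresholded list, and it is contained in the ranked list behind it. Of that ranked list, 120 further candidates had a score of 830 or more, and 0 miRNA genes lay within 500 bp of them. Genes came from Ensembl release 115, with the RefSeq symbol for let-7. Sequences came from the RefSeq genome of WBcel235, and not every mature sequence of the families named is reported here. Counts, shares and exact intervals were computed with Python 3.11.15, pandas 2.3.3, numpy 2.4.6 and scipy 1.17.1, and the window search was tested on simulated summits. With 1 group and no controls no test was made. Named genes were those with a thresholded summit in either window, the 10 highest unbound genes, their neighbours and a list of 30 known genes, plus bound genes of 2 protein-coding lists; cgh-1, mir-4813 and the unbound genes of those lists were named after their values were seen. The members, lists and alternatives were chosen with earlier results of these data known. Alternatives were other windows, lists, peak sets and either replicate alone.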

Additional observations from a re-analysis of the deposited data

How the results depend on the processing

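With 9 bound genes and 8 summits as the base, against 1.86% of all nuclear genes, a window of 250 bp gave 4 genes and 4 summits (1.43% of all nuclear genes), 1000 bp gave 16 and 15 (2.65%), and 2000 bp upstream gave 18 and 16 (2.21%). Shares of all nuclear genes in this section include the piRNA genes, and without them the base share was 2.68%. Main-list peaks at or above the median signal left 5 genes and 4 summits, against 1.17% of all nuclear genes. Counting from the nearest base of the gene moved that share to 3.11%, with 9 miRNA genes. The conservative list, peaks that overlap it, any base of the peak, and leaving out summits nearer another small RNA gene gave 6 to 11 genes, against 1.42% to 2.06%. Without replicate 1 or replicate 2, that is in the list of the other replicate alone, the range was 2 to 5 genes, 2 to 5 summits and a share of all nuclear genes of 0.672% to 0.855%. Without replicate 2 none of the 9 genes was called, and the 2 called were mir-4929 and mir-8195. Of the pathway list, 4 genes in the base, a window from 500 bp upstream to 100 bp downstream left 1, vig-1 (1.48% of all protein-coding genes), and leaving out either replicate gave 2 to 3 (0.886% to 0.946%). Of the target list, 2 genes in the base and with alternatives chosen after seeing the data, the same narrow window left 0, a window from 2000 bp upstream to 500 bp downstream gave 4 (3.41%), the conservative list gave 1 (1.97%), and leaving out either replicate gave 1 to 2. The causes were not tested. For single named genes the percentile of the highest candidate in its list was followed: of 200 values under other lists and windows, 110 moved by less than the SD between replicates and 90 moved by more or had no SD. That SD comes from 2 replicate values per gene, which are also among the values judged. A gene whose replicates differ widely therefore counts as little moved, and these counts are no measure of stability. No paired analysis was possible because there was 1 group and no groups were compared. The signal has no stated scale, read depth is unknown, and an annotated start is seldom the start of the primary transcript.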
